A study of Mus musculus with 96 samples.

Results

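The circadian clock genes Per1, Per2, Per3, Cry1, Cry2, Arntl, Clock, Nr1d1, Nr1d2 and Dbp were followed in microglia of young and old mice after surgery. They are 10 of the 54532 gene models counted in each library, and they were chosen by name, as core genes of the clock, and found by their Ensembl identifiers. The series holds 96 libraries from 48 wild-type mice, each made from 1000 sorted microglia (CD11b+, Fcrls+, Ly6C-) of a hemisphere or of the hippocampus. Young mice were 3 to 5 months old and old mice 20 to 22 months. Each mouse was labelled surgery (abdominal surgery, by the series title) or control, and was taken at 6 h or 48 h. The young groups held 4 mice each at each time. Old control groups held 8 mice each, and old surgery groups held 7 mice at 6 h and 9 mice at 48 h. The labels do not say what the control mice underwent, and they give no hour of day for the collection.

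The mammalian clock is a feedback loop of transcription. ARNTL (BMAL1) and CLOCK bind E-boxes as a pair and drive Per, Cry, Nr1d1, Nr1d2 and Dbp. PER and CRY proteins then restrain ARNTL and CLOCK, NR1D1 and NR1D2 (REV-ERB alpha and beta) repress Arntl through ROR elements, and DBP drives genes through D-boxes. Per1 is also an immediate target of outside signals, among them glucocorticoid hormones and cAMP. In microglia, as in other macrophages, clock genes cycle over the day and are tied to the size of inflammatory responses.

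Per1 and Per3 were the 2 members with a call in any comparison, so the 250 bases before their annotated starts are shown, 5′ to 3′ on the gene's strand (RefSeq, GRCm38.p6). Capitals mark an E-box (CACGTG) or a D-box (TTATGNAA), searched on both strands. Per1 has a pair of annotated starts on chromosome 11, and Per3 starts on chromosome 4 on the minus strand.
Per1, first start, chr11:69098699-69098948: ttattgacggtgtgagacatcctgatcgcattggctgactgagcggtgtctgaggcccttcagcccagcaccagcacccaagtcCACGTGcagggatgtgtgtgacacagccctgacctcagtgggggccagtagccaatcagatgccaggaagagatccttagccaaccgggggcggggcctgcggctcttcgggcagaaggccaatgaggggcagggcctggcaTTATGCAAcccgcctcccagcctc
Per1, second start, chr11:69099902-69100151: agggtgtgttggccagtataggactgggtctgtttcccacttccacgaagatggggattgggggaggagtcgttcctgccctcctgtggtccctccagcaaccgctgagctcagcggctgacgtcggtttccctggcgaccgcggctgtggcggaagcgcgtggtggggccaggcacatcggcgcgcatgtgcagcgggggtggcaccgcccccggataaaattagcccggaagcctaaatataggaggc
Per3, chr4:151044666-151044915: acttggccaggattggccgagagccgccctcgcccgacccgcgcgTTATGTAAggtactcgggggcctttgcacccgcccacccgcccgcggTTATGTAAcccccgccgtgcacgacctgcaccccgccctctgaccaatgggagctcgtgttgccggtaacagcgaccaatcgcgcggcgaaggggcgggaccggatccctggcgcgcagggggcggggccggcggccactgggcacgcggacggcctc

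The first Per1 window held 1 E-box, which began at base -166 counted from the start, and 1 D-box, which began at -24. No motif was matched in the second Per1 window. The Per3 window held 2 D-boxes, at -205 and -158. In the windows of all annotated starts (32851 windows of 250 bases before and 50 bases after the start), an E-box was found in 7.15% and a D-box in 3.39%. Of the 10 members, 9 had a window, 13 windows in all. Besides Per1, an E-box lay in the window of Cry1, and the near-E-box CACGTT lay in those of Cry1, Cry2 and Nr1d1, against 4.69% of all windows. A ROR element (TAGGTCA, 2.61% of all windows) lay in 1 Arntl window, 30 bases after the start. Neither the cAMP response element TGACGTCA (1.79% of all windows) nor the palindromic glucocorticoid response element (0.475%) was matched in any member's window. Sites outside the windows, or with a letter changed, were not searched, and Per2 had no window. A match is a run of letters and not a measured site, and E-box and near-E-box letters do not overlap each other.

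The libraries held 1874168 to 3778939 counts, but 13 gene models took 52.3% to 79.6% of them, which left 498339 to 1524471 counts for all other genes. Levels are given as CPM, edgeR's counts relative to library size, scaled by TMM factors over all 96 libraries. In 6 libraries small counts came in steps, so that values of 1 made up 4.11% to 24.7% of the values from 1 to 3, against at least 42.7% in the others. These stepped libraries are 2 of the 4 young controls of the hippocampus at 6 h, 1 old control and 1 old surgery library of the hemisphere at 6 h, and 2 old surgery libraries of the hippocampus at 6 h. The 9 microglial markers had a median level of 510 CPM, and none of the 9 was at 0 in any library. No sign of a library deposited more than once was found among the 274 pairs of the same group.

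Clock genes were expressed at low to moderate levels, and Per1 led. Per1, a light- and hormone-inducible repressor of the loop, had a median of 33.9 CPM over the 96 libraries and was detected in all of them, with a median of 94.5 counts. Divided by exon length, the levels ran from 6.02 CPM per kb for Per1 through 1.38 for Nr1d2, 1.25 for Per3 and 1.24 for Nr1d1 to 0.691 for Clock, 0.545 for Arntl, 0.537 for Dbp, 0.492 for Cry2, 0.41 for Cry1 and 0.342 for Per2. On the CPM scale without length, Per3 had a median of 12, Clock of 9.48 and Nr1d2 of 7.45. Arntl (4.10 CPM), Nr1d1 (3.81), Cry2 (3.11), Per2 (2), Dbp (1.61) and Cry1 (1.37) each had a median below 5 CPM. Cry1, a strong repressor of the loop, was at 0 counts in 9 libraries, Dbp in 5, Per2 in 3 and Nr1d1 in 1. Across 40 comparisons Cry1 never passed the filter on low counts, Dbp failed it in 16 and Per2 in 6, so these members were tested less or not at all. The other 7 members were tested in all 40. Some counts of Dbp, Nr1d1 and Cry2 may belong to genes on the other strand, since their exons overlap those of Sphk2 (18% of the Dbp exon length), Thra (8.55% of Nr1d1) and D930015M05Rik (4.67% of Cry2). The sources used here do not say whether the counting used strand.

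**Figure D1:**
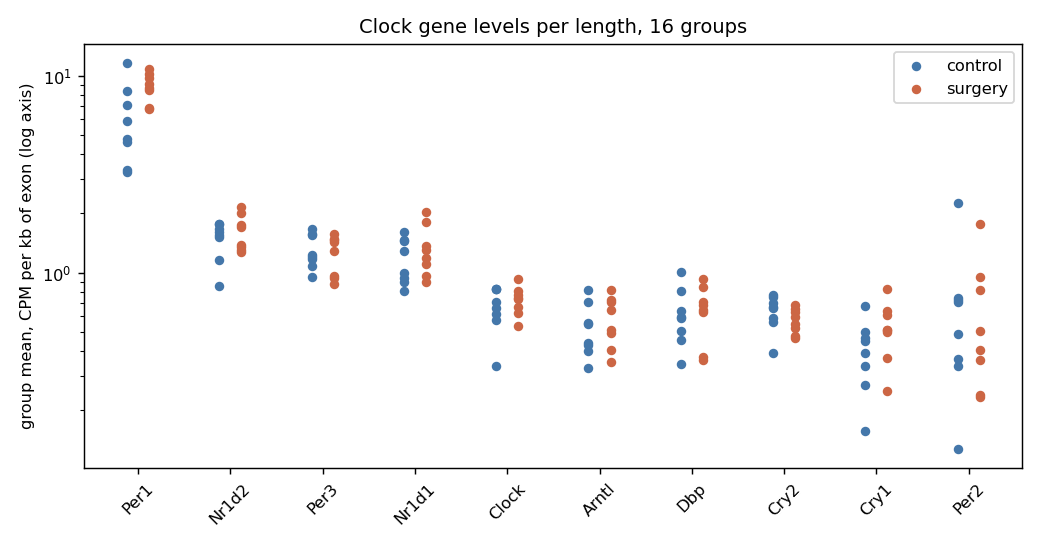
Level of each clock gene per kb of exon (CPM per kb, log axis) in the 16 groups; each point is 1 group mean, with control groups in blue and surgery groups in orange. Per1 stands above every other member, with an overall median of 6.02 CPM per kb against 1.38 for Nr1d2.

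Per1 was higher after surgery at 6 h. In the comparison that takes the mean of the surgery effects of both ages, Per1 rose 2.47-fold in the hemisphere (log2 fold change 1.31 ± 0.30 SE, edgeR BH 0.0434) and 2.29-fold in the hippocampus (1.19 ± 0.23, edgeR BH 0.0135). It was 1 of 9 members called in each region, where 0.509% of all 12760 genes tested were called in the hemisphere and 0.343% of 13703 in the hippocampus. The hemisphere call was lost with RLE size factors (edgeR BH 0.0532) and when low counts were left in (edgeR BH 0.182), and the hippocampus call when old mice were kept within the sort numbers of young mice (1.15, edgeR BH 0.35). The median log2 fold change of the 9 members tested was 0.09 in the hemisphere and 0.01 in the hippocampus, beside -0.01 and 0.00 over all genes tested.

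In the young hemisphere at 6 h, Per1 lay at 18, 14.6, 22.3 and 20.1 CPM in the 4 controls. The 4 surgery libraries had 74.0, 65.4, 42.6 and 37.9 CPM. All 4 lay above every control, which held in either direction for 3.03% of all genes tested, and the log2 fold change was 1.54 ± 0.49 (edgeR BH 0.649).

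In the young hippocampus at 6 h the controls had 8.62, 16.7, 24.8 and 22.9 CPM of Per1, the first and the last of them stepped libraries. The surgery libraries had 98.4, 37.4, 33.0 and 34.5 CPM. Again no surgery library fell among the controls (3.89% of all genes tested did not overlap), although 1 surgery library stood far above the other 3. The log2 fold change was 1.48 ± 0.37 (edgeR BH 0.223).

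In old mice at 6 h the groups overlapped. The 8 hemisphere controls ran from 11.6 through a median of 21.3 to 80.3 CPM of Per1, and the 7 surgery libraries from 18.7 through 53.2 to 104 CPM. The control at 80.3 CPM was a stepped library, and the next highest control had 24 CPM. The log2 fold change was 1.08 ± 0.35 (edgeR BH 0.28). Without that control it was 1.57 (edgeR BH 0.00694), and without all stepped libraries 1.67 (edgeR BH 0.00304). In the old hippocampus the controls ran from 19.9 through 23.9 to 38.8 CPM and the surgery libraries from 28.2 through 47.7 to 79.0 CPM, with 5 of 7 above every control. The log2 fold change there was 0.90 ± 0.27 (edgeR BH 0.267).

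No single-age comparison at 6 h had a called member, at an unadjusted p below 0.05 for 5 of 36 tests, and DESeq2 called 1 (Per1 in the young hippocampus, adjusted p 0.0469). Of all genes tested, 564 (young) and 1030 (old) of 12760 had an unadjusted edgeR p below 0.05 in the hemisphere. In the hippocampus these were 1075 and 1137 of 13703. The share of all genes called was 0.0627% in the young and 0.337% in the old hemisphere. It was 0.0365% in the young and 0.0876% in the old hippocampus. In old mice no member was free of overlap at 6 h, where 0.251% of all genes tested were in the hemisphere and 0.182% in the hippocampus. The difference between the ages in the Per1 response (old minus young) was -0.46 ± 0.60 in the hemisphere (edgeR BH 0.999) and -0.58 ± 0.46 in the hippocampus (edgeR BH 0.685), so a difference between the ages was not detected at this depth and number of mice. The Per1 call of the hippocampus was lost without young surgery replicate 1, the library at 98.4 CPM (0.92, edgeR BH 0.0758), and without the stepped libraries (1.14, edgeR BH 0.0974). In the hemisphere 4 of 23 refits that left out 1 library kept the call, with log2 fold changes of 1.20 to 1.55 and edgeR BH of 0.000733 to 0.126.

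**Figure D2:**
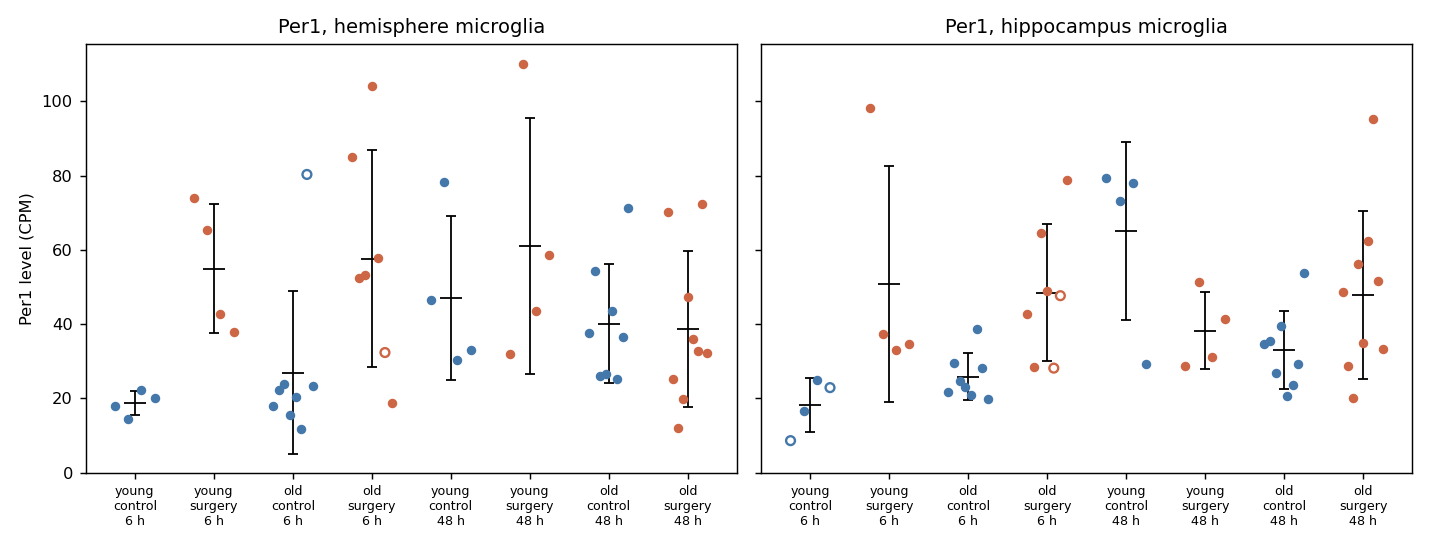
Per1 level (CPM) in each library by age, treatment and time, for the hemisphere (left) and the hippocampus (right); blue points are controls, orange points surgery, open circles stepped libraries, and bars the group mean ± SD. At 6 h the young controls of the hemisphere sit between 14.6 and 22.3 CPM, below all 4 surgery libraries, while at 48 h surgery and control overlap at both ages.

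The summed levels of the astrocyte and B cell markers had group medians that differed between surgery and control at 6 h, mostly through Slc1a3 and Ighm. Group values of most other markers, and of the other cell types, are not given here. The summed level of the 6 astrocyte markers had group medians of 40.1 to 51.3 CPM in the 4 control groups and of 72.4 to 78.9 CPM in the 4 surgery groups. Most of this was Slc1a3, a glutamate transporter, with medians of 31.1 to 37.3 CPM in controls and 52.9 to 56.6 CPM after surgery. Gfap, another of the 6, was at 0 in 54 of 96 libraries and had a group median of at most 0.415 CPM in these groups. Over all 96 libraries Gja1 had a median of 7.52 CPM and was never at 0. Aqp4, Aldoc and Slc1a2 had medians of 0.454 to 0.909 CPM. The summed level of the 5 B cell markers was lower after surgery, with group medians of 98.9 to 120 CPM in controls and 59.1 to 82.6 CPM after surgery. Most of this was Ighm, the IgM heavy chain, with group medians of 84.4 to 108 CPM in controls and 51.8 to 67.6 CPM after surgery, while Cd79a had a group median of at most 0.403 CPM. The part of these transcripts in the Per1 difference was not tested. In libraries of pooled cells, fewer cells of a type and less RNA per cell cannot be told apart.

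Of the other repressors of the loop, Per2, Per3 and Cry2 did not pass the test at 6 h, and Cry1 was not tested. Per3, a period gene with a lesser part in the central loop, had a log2 difference after surgery (mean of both ages) of 0.09 ± 0.20 in the hemisphere and -0.10 ± 0.16 in the hippocampus. Per2, which like Per1 answers to outside signals in other tissues, had 0.36 ± 0.62 and 0.05 ± 0.31. Cry2, a cryptochrome that represses with the PER proteins, had -0.21 ± 0.27 and -0.30 ± 0.33. The lowest adjusted p of these was that of Cry2 in the hemisphere (edgeR BH 0.96).

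Of the activators and the REV-ERB arm at 6 h, Nr1d1 had the lowest p. Nr1d1, the heme-sensing repressor of Arntl, had a log2 fold change of 1.09 ± 0.31 in the old hemisphere (unadjusted p 0.0019, edgeR BH 0.181), where controls ran from 1.25 through 2.93 to 5.07 CPM and surgery libraries from 3.28 through 7 to 9.59 CPM. There, 4 of 7 surgery libraries lay above every control. The mean of both ages gave 0.73 ± 0.27 in the hemisphere (edgeR BH 0.449) and 0.22 ± 0.30 in the hippocampus (edgeR BH 0.964). Clock, the DNA-binding partner of ARNTL, had 0.27 ± 0.21 and -0.01 ± 0.21 in the same order. Arntl had 0.09 ± 0.31 and 0.01 ± 0.34, Nr1d2 had 0.06 ± 0.25 and -0.03 ± 0.28, and the output gene Dbp had -0.08 ± 0.35 and 0.27 ± 0.44, and none of them passed the test. In simulated counts a 4-fold change was found in 92.4% of changed genes in either of these comparisons. A 2-fold change was found in 48.5% in the hemisphere and 40.4% in the hippocampus. The changed genes were drawn at random from all genes that passed the filter, at any level. The shares for genes with counts as low as those of most members were not worked out.

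**Figure D3:**
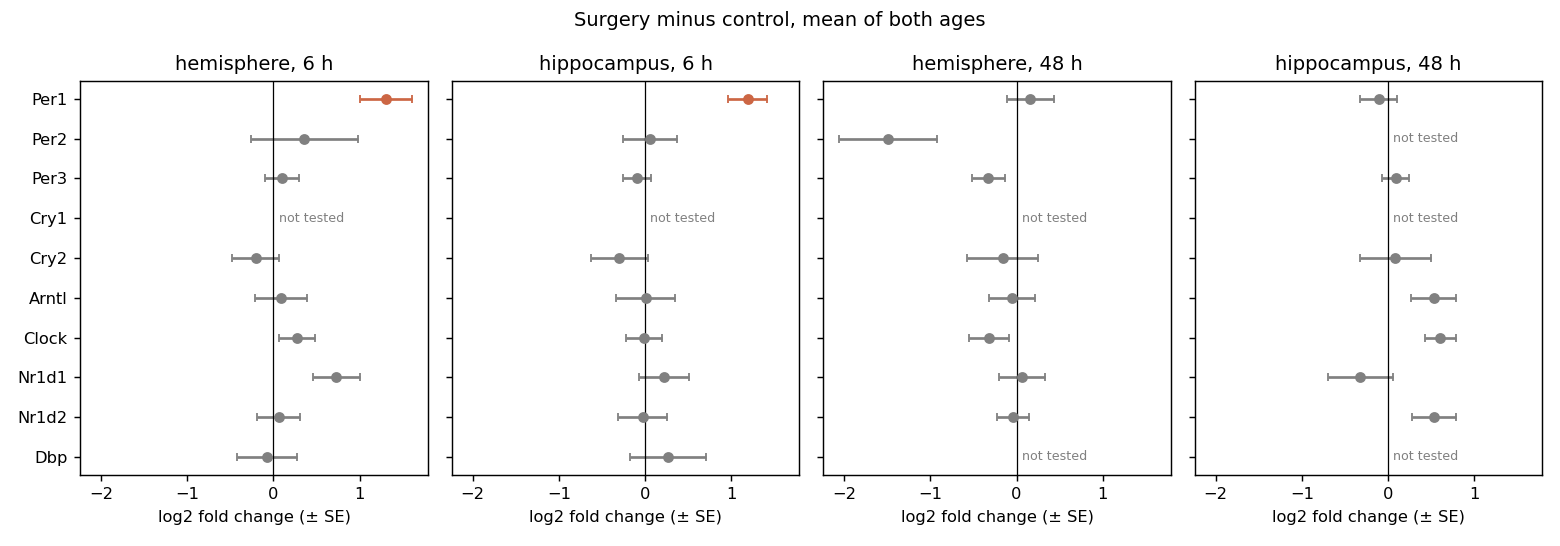
Surgery minus control for each clock gene as the mean of both ages (x axis, log2 fold change with its SE), by region and time; orange marks an edgeR BH below 0.05. Per1 is the coloured gene in both panels at 6 h, at 1.31 in the hemisphere and 1.19 in the hippocampus, and no gene is coloured at 48 h.

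At 48 h no clock gene was called after surgery. edgeR called 0 of 45 member tests in the 6 surgery comparisons at that time (10 at an unadjusted p below 0.05, and 0 by DESeq2), with 0% of all genes called by edgeR in each of them and at most 3 genes by DESeq2. In each of the 6 comparisons, 432 to 733 of all genes tested (11985 or 12250) had an unadjusted edgeR p below 0.05. The means of both ages use the same libraries as the single ages. Per1 had a log2 difference of 0.16 ± 0.27 in the hemisphere and -0.11 ± 0.21 in the hippocampus (mean of both ages). In the hippocampus the 2 ages had opposite signs, with -0.75 ± 0.35 in young and 0.53 ± 0.25 in old mice. The difference between those, 1.28 ± 0.43, had an unadjusted p of 0.00625 and did not pass the adjustment (edgeR BH 0.725).

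Of the member tests of surgery at 48 h, Clock in the young hippocampus had the lowest p. The 4 controls had 7.31, 2.43, 6.47 and 2.17 CPM of Clock, and the 4 surgery libraries had 9.41, 12.3, 10.9 and 9.49 CPM. The groups did not overlap, as for 1.88% of all genes tested, and the log2 fold change was 1.18 ± 0.31 (unadjusted p 0.000635, edgeR BH 0.459). The lowest controls rested on 4 and 7 counts. Nr1d2, the sister of Nr1d1, had a log2 fold change of 1.26 ± 0.42 in the same comparison (edgeR BH 0.644). In the old hippocampus Clock lay at 6.51 to 12.3 CPM in controls and 6.86 to 14.1 CPM after surgery, so the ranges overlapped.

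In the young hemisphere at 48 h, Nr1d1 lay at 3.28, 3.13, 2.30 and 3.61 CPM in controls and 4.96, 4.34, 6.31 and 6.78 CPM after surgery. These groups also did not overlap, as for 2.11% of all genes tested. In old mice the order was the other way round, with a log2 fold change of -0.70 ± 0.30 (edgeR BH 0.833), where the groups overlapped (0.0327% of all genes tested did not), and the difference between the ages was -1.52 ± 0.53 (unadjusted p 0.00766, edgeR BH 0.926). All of these Nr1d1 values rest on 2 to 19 counts a library.

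Control levels of Per1 differed between the times. In young controls of the hippocampus Per1 was 3.6-fold higher at 48 h than at 6 h (log2 1.85 ± 0.39, edgeR BH 0.0277), 1 of 9 members called beside 0.117% of all 14510 genes tested. The 48 h controls had 79.5, 73.3, 78.2 and 29.3 CPM against 8.62 to 24.8 CPM at 6 h, with no overlap (3.66% of all genes tested). Without the stepped libraries, which leaves 2 controls at 6 h, the log2 difference was 1.63 (edgeR BH 0.414). Leaving out 1 library at a time gave 1.62 to 2.08, and 4 of 8 refits lost the call (edgeR BH up to 0.19), those without 6 h replicate 1 or 4 or 48 h replicate 2 or 3.

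In young controls of the hemisphere the 48 h libraries had 46.4, 78.4, 30.3 and 33.1 CPM of Per1 and again lay above all 6 h controls (4.02% of all genes tested did not overlap). The log2 difference there was 1.3 ± 0.50 (edgeR BH 0.73), and 0 of 9 members were called beside 0.00707% of all genes. An unadjusted edgeR p below 0.05 was found for 2 of the 9 members and for 814 of 14144 genes. In old controls the Per1 log2 difference was 0.55 ± 0.35 in the hemisphere and 0.32 ± 0.27 in the hippocampus. The old groups overlapped (0.311% and 0.152% of all genes tested did not overlap). All mice taken at 6 h carry lower sort numbers than all mice taken at 48 h, so time and the series of sorts cannot be told apart. The labels give no hour of day, so that hour cannot be told apart from them either, here and for Per3 and Clock below.

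Ordered by group mean, Per1 was highest in young hippocampus controls at 48 h, at 65.0 ± 24 CPM (SD, n = 4), followed by young hemisphere surgery at 48 h (61.1 ± 34.5, n = 4). The 4 surgery groups of 6 h came next, at 48.5 to 57.6 CPM. The 4 control groups of 6 h were the lowest, at 26.9 ± 22.0 and 25.9 ± 6.24 CPM in old hemisphere and hippocampus (n = 8 each) and 18.7 ± 3.30 and 18.3 ± 7.31 CPM in young (n = 4 each). Only the step from 25.9 to 18.7 CPM was larger than the SD of both neighbours in this order. This sets gaps between means beside the spread of libraries and is not a test. The groups at that step, old hippocampus and young hemisphere controls, were not compared with each other.

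Per3, by contrast, was lower at the later time in 1 comparison. In old controls of the hippocampus Per3 fell by 0.83 ± 0.18 on the log2 scale from 6 h to 48 h (edgeR BH 0.0415), 1 of 9 members called beside 0.0896% of all genes tested. The 8 controls at 6 h ran from 9.95 through 17.1 to 20.7 CPM and those at 48 h from 6.71 through 8.48 to 16.2 CPM, with 7 of 8 at 48 h below every control at 6 h. In young controls of the hippocampus the difference was -0.54 ± 0.25 (edgeR BH 0.366), from 12.6 to 16.7 CPM at 6 h to 7.31 to 14.1 CPM at 48 h. After surgery, old hippocampus had 9.64 to 20.6 CPM at 6 h and 6.96 to 10.4 CPM at 48 h, a pair that was not tested on its own. The call was lost in 13 of 16 refits without 1 library, with log2 differences of -0.98 to -0.75 and edgeR BH up to 0.114, and it was lost when old mice were kept only within the sort numbers of young mice (-0.87, edgeR BH 1).

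Clock and Nr1d1 came next. In young controls of the hippocampus Clock lay at 2.17 to 7.31 CPM at 48 h and at 14.1, 8.11, 9.12 and 14.0 CPM at 6 h, where the first and the last are stepped libraries. The groups did not overlap, as for 3.66% of all genes tested. The log2 difference was -1.27 ± 0.32 (edgeR BH 0.0924), and DESeq2 called it (adjusted p 0.0227). Without the stepped libraries the Clock difference was -0.89 (edgeR BH 0.683). For Nr1d1, the surgery effect in the old hemisphere was 1.79 ± 0.43 lower on the log2 scale at 48 h than at 6 h (edgeR BH 0.0672), and DESeq2 called it too (adjusted p 0.0249). edgeR called 0 of 36 member tests of such time differences, where up to 0.17% of all genes were called. An unadjusted edgeR p below 0.05 was found for 5 of the 36, and over all genes for 611 of 14144 to 1194 of 14510. For Per1 the surgery effect at 48 h minus that at 6 h was -2.26 ± 0.54 in the young hippocampus (edgeR BH 0.265) and -1.15 ± 0.68 in the young hemisphere. The share of all genes called in the young hemisphere was 0.00707%. The Per1 value was -1.14 ± 0.49 in the old hemisphere and -0.36 ± 0.38 in the old hippocampus, and these share their controls with the comparisons above.

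**Figure D4:**
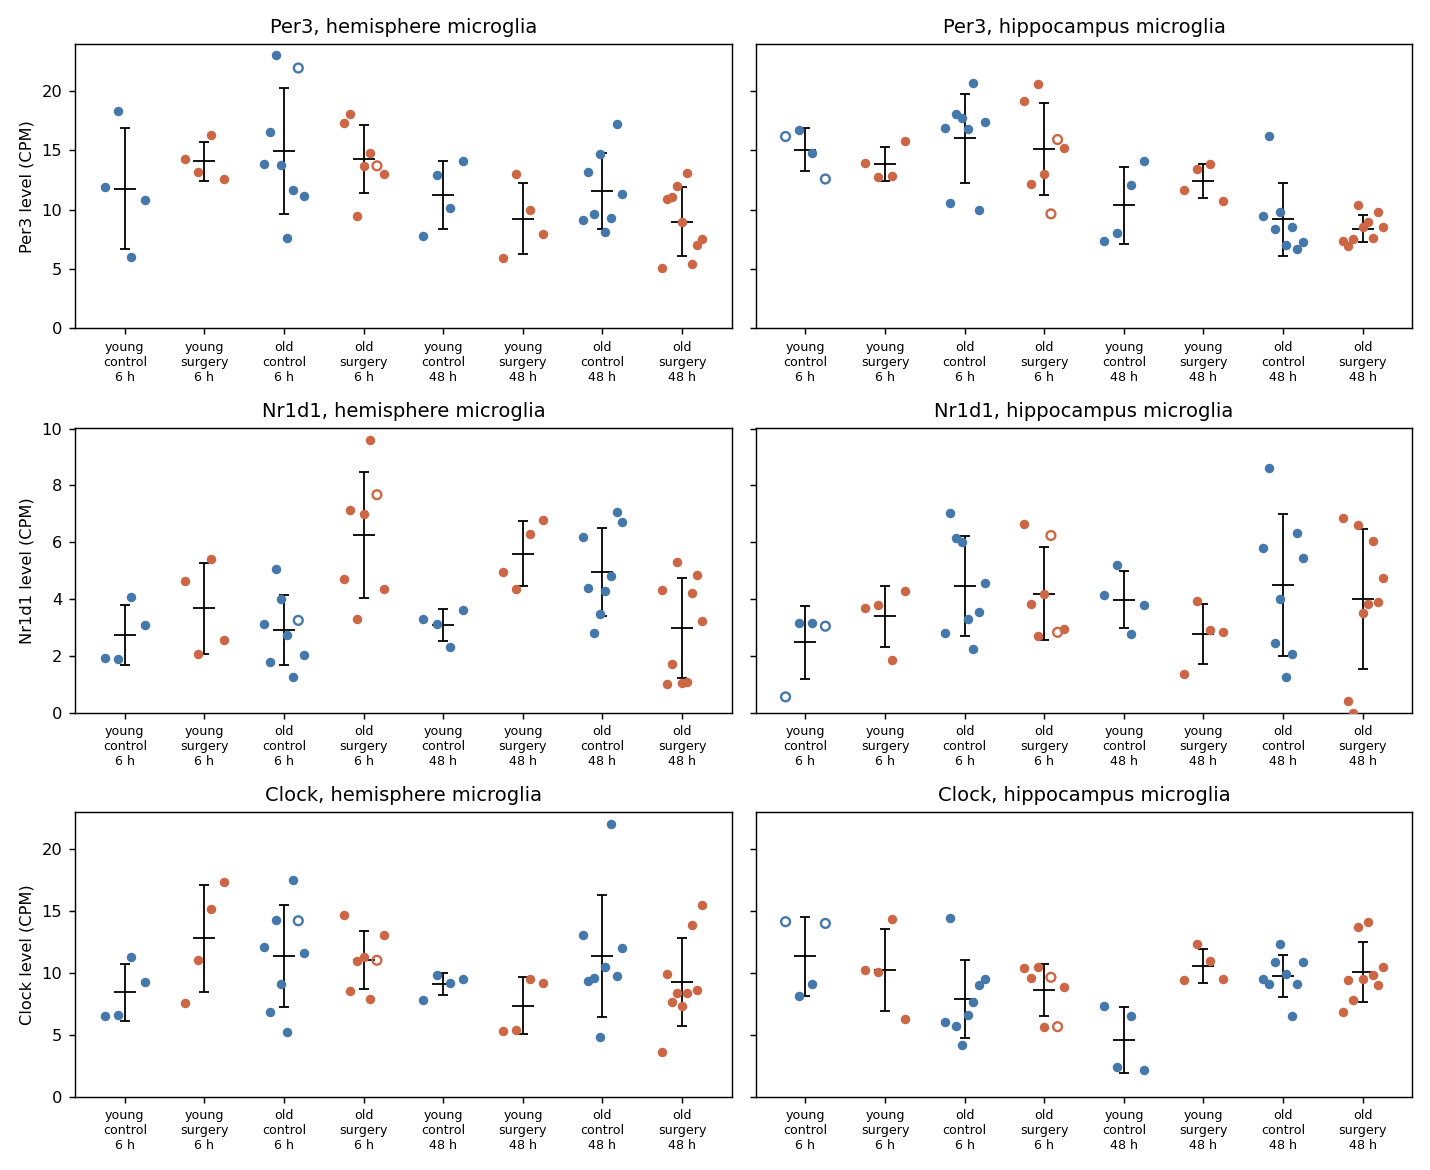
Levels (CPM) of Per3, Nr1d1 and Clock in each library by age, treatment and time, for the hemisphere (left) and the hippocampus (right); blue points are controls, orange points surgery, open circles stepped libraries, and bars the group mean ± SD. Per3 in the old hippocampus is lower at 48 h (median 8.48 CPM in controls) than at 6 h (17.1 CPM), and Clock in the young hippocampus at 48 h is at 2.17 to 7.31 CPM in controls and 9.41 to 12.3 CPM after surgery.

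Age alone moved no clock gene past the threshold. edgeR called 0 of 66 member tests in the 8 comparisons of old with young mice, and DESeq2 called 0. An unadjusted edgeR p below 0.05 was found for 7 of the 66, and over all genes for 760 of 12760 to 1352 of 11985. The share of all genes called was 0% to 0.114%. Among controls this share was 0.0784% in the hemisphere and 0.0584% in the hippocampus at 6 h, and 0.0898% and 0.0834% at 48 h. After surgery it was 0.00784% in the hemisphere at 6 h, and 0.114% in the hemisphere and 0.0834% in the hippocampus at 48 h. No member separated old from young controls without overlap, against 0.854% and 0.73% of all genes in hemisphere and hippocampus at 6 h and 0.612% and 0.584% at 48 h. The lowest adjusted p was that of Clock in hippocampus controls at 48 h, 1.04 ± 0.28 higher in old mice (edgeR BH 0.211), with 7 of 8 old libraries above every young one. Per1 in the same controls was 1.01 ± 0.30 lower in old mice on the log2 scale (-1.01, edgeR BH 0.285), at 20.6 to 53.8 CPM against 29.3 to 79.5 CPM. Both of these rest on the young hippocampus controls of 48 h that the comparisons above use.

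No member passed the test between the regions. Hippocampus and hemisphere of the same mice were compared with the animal in the model, and edgeR called 0 of 68 member tests in 8 comparisons (5 at an unadjusted p below 0.05, 0 by DESeq2), where up to 0.0297% of all genes were called. For Per1 the log2 differences ran from -0.58 ± 0.31 in young mice after surgery at 48 h to 0.47 ± 0.31 in young controls at 48 h. The most extreme value was that of Per2 in young controls at 48 h, -3.79, with 17.7, 32.5, 0.919 and 1.64 CPM in the hemisphere and 0.318, 0.347, 2.31 and 0 CPM in the hippocampus (edgeR BH 1), where 2 of 4 hemisphere libraries stood high. Without replicate 2 the Per2 difference was -2.58 (edgeR BH 1) and without replicate 3 it was -5.97 (edgeR BH 0.523), and with no filter on low counts it was called (-3.82, edgeR BH 3.96e-05).

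Across all 40 comparisons edgeR called 4 of 338 member tests and 48 had an unadjusted p below 0.05, while DESeq2 called 7. In single comparisons, 432 (of 11985) to 2116 (of 14144) of all genes tested had an unadjusted edgeR p below 0.05. Many comparisons share libraries, so these tests are not independent, and the counts are given as a description. The 4 calls were the 3 of Per1 and the 1 of Per3 above. In the 36 comparisons without a called member the share of all genes called ran from 0% to 0.848%.

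A list of 24 partners, outputs and regulators (among them Npas2, Arntl2, the Ror genes, Bhlhe40 and Bhlhe41, Ciart, Cipc, Nfil3, Tef, Hlf, the casein kinases, Fbxl21, Btrc, Timeless, Usp2, Noct, Gsk3b, Nampt, Sirt1 and Wee1) had 0 edgeR calls in 690 tests, with 48 at an unadjusted p below 0.05. The 690 tests come from the same 40 comparisons, whose range over all genes at an unadjusted p below 0.05 is given above. In the 6 h comparisons of surgery over both ages, 16 of the 24 were tested in the hemisphere (8 positive, 8 negative, median log2 fold change 0.02). In the hippocampus 17 were tested (9 positive, 8 negative, median 0.03). Bhlhe41, an E-box repressor with a median of 43.2 CPM, had -0.05 ± 0.11 and -0.03 ± 0.13. Csnk1e, the casein kinase that marks PER proteins for decay and had a median of 39.8 CPM, had 0.07 ± 0.21 and 0.09 ± 0.17. Nampt, the NAD-making enzyme under clock control, had -0.46 ± 0.33 and -0.87 ± 0.30 (edgeR BH 0.396 in the hippocampus).

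Per1 was most like Tsc22d3 in its pattern over the groups. Over the 16 group means of log2 CPM, the 5 genes with the highest Pearson correlation to Per1 among 2587 genes were Tsc22d3 (r 0.89), Tagap (0.88), Klf13 (0.82), Selenos (0.80) and Rassf1 (0.80). These means share libraries and animals and are given as a description. Tsc22d3, which encodes the glucocorticoid-induced leucine zipper, rose at 6 h by 1.92 ± 0.22 in the hemisphere and 1.72 ± 0.18 in the hippocampus (mean of both ages, edgeR BH 7.67e-06 and 4.3e-06). From 6 h to 48 h in controls, Tsc22d3 rose in the old hemisphere (1.01 ± 0.26, edgeR BH 0.0368), a comparison in which Per1 did not pass. Its differences in the other 3 comparisons, 0.97 to 1.49, did not pass (edgeR BH 0.0924 to 0.145). For Nr1d1 the most alike genes were Tulp4 (0.82), Rps12 (0.76), Myc (0.69), Lrrc8d (0.68) and Sh3bgrl3 (0.65). For Dbp they were Fam193b (0.87), Srrm2 (0.86), Mbtps2 (0.79), Wdr59 (0.78) and Olfr90 (0.77). For Arntl they were Kdm2a (0.84), Pbxip1 (0.84), Vav2 (0.83), Rgs1 (0.82) and Slc8a1 (0.82). The rankings for Nr1d1, Dbp and Arntl held 2588 genes each. How high r gets from picking the top of such a ranking over 16 means alone was not worked out. Dbp, Arntl and Nr1d1 had medians of 4, 10 and 10.5 counts a library.

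The same pair was followed from mouse to mouse, after the group means had been seen. Of genes outside the member list, only Tsc22d3 and Fkbp5 were followed in this way. Tagap, Klf13, Selenos and Rassf1 were not, so whether the correlation is particular to Tsc22d3 was not tested. With each library taken as its deviation from its group mean, Per1 and Tsc22d3 were correlated over 48 mice in the hemisphere (Pearson r 0.69, Spearman rho 0.70, permutation p 1e-05 for both, the smallest that the random draws can give, BH 4e-05 over 4 relations). The value was 0.67 within 6 h and 0.71 within 48 h, and 0.64 without the 2 farthest mice. In the hippocampus r was 0.55 and rho 0.47 (permutation p 0.00052 and 0.00256, BH 0.000693), but 0.16 within 6 h against 0.77 within 48 h, and it was 0.43 without the 2 farthest mice. With Fkbp5, a co-chaperone gene that glucocorticoids induce, r was 0.51 and rho 0.57 in the hemisphere (permutation p 0.00034 and 0.00016, BH 0.00068), 0.21 within 6 h and 0.70 within 48 h, and 0.57 without the 2 farthest mice. In the hippocampus it was 0.19 and rho 0.17 (permutation p 0.255 and 0.314, BH 0.255).

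**Figure D5:**
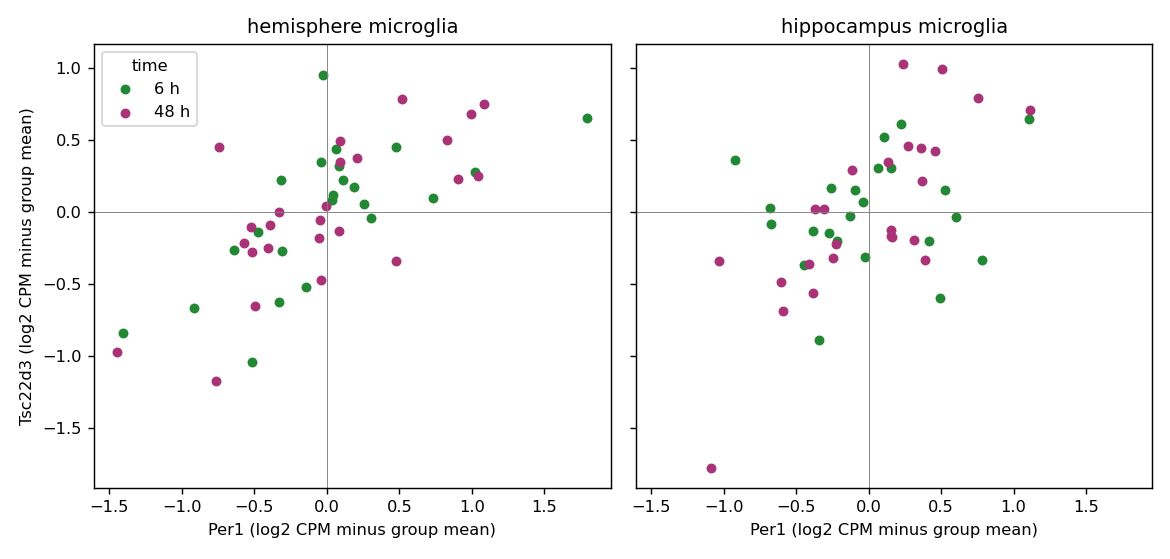
Per1 (x axis) against Tsc22d3 (y axis), each as log2 CPM minus the mean of its group, for the 48 mice in the hemisphere (left) and the hippocampus (right); green points are 6 h and purple points 48 h. The points rise together in the hemisphere at both times (r 0.69 over all), and in the hippocampus at 48 h (0.77) but not at 6 h (0.16).

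The members themselves were not seen to vary together from mouse to mouse. Of 45 pairs of members, 0 passed in either region over 48 mice (permutation tests, BH over 45), with r from -0.31 to 0.38 in the hemisphere and -0.30 to 0.47 in the hippocampus. The highest was that of Per1 with Nr1d1 in the hippocampus (r 0.47, BH 0.127). BH was taken over 45 pairs here and over 4 relations for Tsc22d3 and Fkbp5, so the adjusted values are not alike. Per2, Cry1, Dbp, Cry2, Arntl and Nr1d1 had medians of 4 to 10.5 counts a library, so a relation among them could be missed. Between the hemisphere and the hippocampus of the same mouse, 0 of 10 members passed, with r from -0.31 to 0.45. The highest there was Nr1d1 (r 0.45, rho 0.45, permutation p 0.0106 and 0.00418, BH 0.106), at 0.25 within 6 h and 0.56 within 48 h and at 0.40 without the 2 farthest mice, and Per1 had 0.24 (rho 0.25, permutation p 0.124 and 0.116, BH 0.248), with -0.05 within 6 h and 0.49 within 48 h.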

How the data were processed

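The authors deposited 4 tables of estimated counts (expected counts) per gene and library, whole numbers in which each column is 1 library. The sources used here name neither aligner nor counter. The submitters' processing notes name the build mm10, R 4.2.1 and DESeq2 1.36.0. Gene symbols came from GENCODE M21, which matched 54409 of 54532 identifiers. Libraries that share a sort number in the labels were taken as 1 animal.

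Counts were tested with edgeR 4.0.16 in R 4.3.3 (quasi-likelihood F-test, TMM factors, filterByExpr with a minimum count of 10, Benjamini-Hochberg (BH) threshold 0.05 over all genes tested), with DESeq2 1.42.0 as an alternative. The 4 groups of 1 region and time entered 1 fit, 8 groups of 1 region the fits on time, and the fits on region held the animal as a block. Standard errors are the fold change over the root of F. Correlations used log2 CPM with a prior count of 2. The steps were tested on simulated data. Alternatives (size factors, filters, DESeq2, left-out libraries, sort numbers, a replicate block) are given in the closing section. Only sort numbers tie libraries to mice, so p-values measure the spread between these samples.

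Members that passed BH are given with the value of each library, or with the range and median in groups over 5; the genes most like Per1, Nr1d1, Dbp and Arntl are the 5 with the highest correlation of group means, among named genes that every within-table fit tested and whose mean log2 CPM was 4 or more. The members and gene lists were chosen with earlier results of these data known. 1 gene of the pathway list is not reported here by name.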

Additional observations from a re-analysis of the deposited data

Results flagged for a closer look

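In 26 of 160 sets of libraries, each 1 clock gene in 1 group of 4 to 9 libraries, 1 library stood apart from the rest by Dixon's test of the gap to its nearest neighbour. For normally distributed values, chance alone gives such a gap in about 1 in 20 sets. The test was run on CPM without a log scale, and its chance rate for such values was not worked out. The number of sets with a gap is therefore given as a description, and no excess over chance is read from it.

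For Per1 these were 80.3 CPM in old hemisphere control at 6 h replicate 7 (others 11.6 to 24, a stepped library), 29.3 CPM in young hippocampus control at 48 h replicate 4 (others 73.3 to 79.5) and 98.4 CPM in young hippocampus surgery at 6 h replicate 1 (others 33.0 to 37.4). For Per2 these were 16.6 CPM in old hemisphere control at 48 h replicate 5 (others 0.31 to 4.48), 17.5 CPM in old hippocampus control at 48 h replicate 3 (others 1.05 to 6.52), 18.7 CPM in old hemisphere control at 6 h replicate 8 (others 0.461 to 4.57) and 6.16 CPM in old hippocampus control at 6 h replicate 3 (others 1.91 to 3.30). Further Per2 libraries had 4.0001 CPM in old hippocampus surgery at 48 h replicate 5 (others 0.41 to 1.71), 24 CPM in old hemisphere surgery at 6 h replicate 5 (others 0 to 3.67), 2.31 CPM in young hippocampus control at 48 h replicate 3 (others 0 to 0.347) and 3.40 CPM in young hemisphere control at 6 h replicate 4 (others 1.41 to 1.57). Further Per2 libraries had 15.1 CPM in young hemisphere surgery at 48 h replicate 4 (others 0.723 to 1.65) and 38.6 CPM in young hippocampus surgery at 48 h replicate 3 (others 0.633 to 1.31). For Per3 this was 16.2 CPM in old hippocampus control at 48 h replicate 2 (others 6.71 to 9.78). For Cry1 these were 3.90 CPM in old hippocampus control at 6 h replicate 4 (others 0.601 to 1.91) and 7.36 CPM in young hemisphere surgery at 48 h replicate 3 (others 0 to 0.797). For Cry2 these were 11.1 CPM in old hippocampus control at 6 h replicate 5 (others 1.76 to 5.79), 12.3 CPM in old hemisphere surgery at 48 h replicate 7 (others 1.82 to 3.78), 8.33 CPM in old hippocampus surgery at 6 h replicate 4 (others 2.53 to 4.59) and 11 CPM in young hemisphere control at 48 h replicate 2 (others 1.23 to 2.30). Further Cry2 libraries had 6.47 CPM in young hippocampus control at 48 h replicate 3 (others 1.04 to 1.27) and 9.74 CPM in young hemisphere control at 6 h replicate 3 (others 3.06 to 3.40). For Arntl this was 3.27 CPM in young hippocampus surgery at 48 h replicate 3 (others 5.83 to 6.33). For Nr1d1 this was 0.55 CPM in young hippocampus control at 6 h replicate 1 (others 3.04 to 3.16, a stepped library). For Dbp these were 2.69 CPM in old hemisphere surgery at 48 h replicate 7 (others 0.36 to 1.44) and 3.92 CPM in old hippocampus surgery at 48 h replicate 1 (others 0 to 1.70). Per2 gave 10 of the 26 and Cry2 gave 6. Per2 had a median of 5 counts a library. The cause was not tested.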

How the results depend on the processing

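The number of clock genes called stayed within 1.5 times its value in 312 of 329 alternatives and in 533 of 576 refits without 1 library. In 36 of the 40 comparisons no member was called, so most of this is 0 staying 0. Refits without 1 library kept the Per1 call at 6 h over both ages in 4 of 23 (hemisphere) and 22 of 23 (hippocampus). In hippocampus controls over time they kept the Per1 call of young mice in 4 of 8 and the Per3 call of old mice in 3 of 16. No called member value reversed in any alternative run, and 127 of 2550 member values, none of them called, changed sign. For Per1 at 6 h over both ages, the hemisphere went from 1 call to 0 with RLE size factors (edgeR BH 0.0532) and when low counts were left in (0.182), and the hippocampus from 1 to 0 without the stepped libraries and with old mice kept within the young sort numbers (log2 1.15, edgeR BH 0.35). Calls went from 0 to 1 in the young hemisphere within those sort numbers (Per1, edgeR BH 0.0499), in the old hemisphere without the stepped libraries, in the young hippocampus with DESeq2, in the region comparison of young 48 h controls with no filter (Per2, edgeR BH 3.96e-05) and in the old hemisphere's time difference with DESeq2. For 48 h minus 6 h in hippocampus controls, young mice had 2 calls with DESeq2 and 0 with no filter (Per1, edgeR BH 0.112) or without the stepped libraries, and old mice had 0 with no filter (Per3, edgeR BH 0.335) or within the young sort numbers. Leaving out 1 library gave 0 to 1 call in the old hemisphere and over both ages in either region at 6 h, in the old hemisphere's time difference and in old hippocampus controls over time, and 0 to 2 in young ones. The cause was not tested.

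Surgery and control mice share replicate numbers. The deviations of same-numbered mice had median correlations of -0.08 to 0.07 over the 8 sets, against -0.02 to 0.03 for other numbers. Same-number medians were higher in every old set and in the young hemisphere (0.01 to 0.07 against -0.02 to 0.01). They were lower in the young hippocampus (-0.06 and -0.08 against 0.03 and 0.01). The numbers were not taken as a pairing in the main fits. With a replicate block, calls went from 1 to 0 for Per1 over both ages at 6 h in the hemisphere (log2 1.40, edgeR BH 0.0706) and the hippocampus (1.14, edgeR BH 0.059), and for Per3 in old hippocampus controls over time (-0.83, edgeR BH 0.0916).

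Over all genes, calls at 6 h over both ages went from 65 in the hemisphere to 123 with DESeq2 and 22 within the young sort numbers, and from 47 in the hippocampus to 95, 9 and, without the stepped libraries, 25. Between the times, young hippocampus controls went from 17 to 64 with DESeq2, 5 with no filter and 0 without the stepped libraries, and old ones from 13 to 63, 5 and, within the young sort numbers, 0. Depth limits Per2, Cry1, Dbp, Cry2, Arntl and Nr1d1, with medians of 4 to 10.5 counts a library.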
